A study of Rattus norvegicus with 20 samples.

Results

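Islets given an adenovirus for green fluorescent protein (GFP) were compared with islets that received no virus. The comparison used the 5 arrays titled GFP and the 5 titled untreated, 10 of the 20 arrays of the series, and each gene was read from its brightest probe set by the mean over all 20 arrays. The other 10 arrays, 5 each titled for viruses carrying the orphan nuclear receptors Nr4a1 and Nr4a3, entered the estimate of spread. All islets came from male Wistar rats aged 8 weeks and were kept in RPMI medium with 10% serum and 8 mM glucose. Virus was present for 18 h, virus-free medium followed, and islets were collected at 48 h; the untreated islets were also cultured for 48 h. In the labels, the description of the treatment speaks of other viruses (beta-galactosidase, Nkx6-1) than the titles and sample characteristics do, and the groups here follow the titles. Delivery of GFP itself was not checked here. The labels call the replicates biological but do not give the rats behind each sample, so every p-value measures the spread between these samples. Whether the untreated islets also had fresh medium after 18 h is not given, so virus particles, GFP and handling cannot be told apart.

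GFP is a jellyfish protein with no counterpart in the rat, and its virus is the usual control for the virus itself when a gene is delivered to islets. Adenovirus binds cells through the coxsackievirus and adenovirus receptor, encoded by Cxadr, and enters through integrins. Its particles and DNA can be detected by sensors of foreign nucleic acid, which switch on type I interferon and its response genes. The virus can also activate NF-kB, which switches on chemokines and adhesion molecules. In islets, inflammatory signals of this kind are known to impair beta cells, so a vector control that triggered them would bear on any comparison made against it.

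The tissue markers fitted the label of islets. The log2 intensity of the insulin gene Ins1 lay between 14.91 and 15.06 in the 10 arrays, and that of Ins2 between 14.69 and 14.80. The glucagon gene Gcg lay between 14.62 and 14.85. These 3 hormone genes lay near the top of the scale, where an array responds little to further RNA, so a difference in them may be understated. Median intensity over all probe sets, before the logarithm, was 98.9 to 103 in the 10 arrays, and of 4 array measures compared between the groups by an exact two-sided permutation test none passed. The closest was the difference between 3' and 5' probe sets of the hexokinase gene (Hexokinase), a control of RNA and labelling quality, at 0.58 ± 0.20 (SD, log2, n = 5) in untreated and 0.36 ± 0.17 in GFP arrays (exact p = 0.0873, adjusted 0.349, with 0.00794 the smallest p that 5 against 5 arrays can give).

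No gene passed the test between GFP and untreated islets. Of 14217 genes, 0 were called (0%) by limma, a linear model with pooled spread, at a Benjamini-Hochberg adjusted p under 0.05, and the smallest adjusted p was 0.99975. At an unadjusted p under 0.05 there were 412 genes (2.9%), of which 156 were higher and 256 lower with GFP. In 86 genes (0.605%) the 5 arrays of one group all lay beyond the 5 of the other, 31 with GFP higher and 55 with GFP lower. The median log2 difference, GFP minus untreated, was -0.02, with 6030 genes above 0 and 8187 below. Group accounted for 11.5% of the variance of the 10 arrays, summed over genes, beside the 11.1% that its 1 of 9 degrees of freedom makes up.

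The spread set how large an effect could have gone unseen. The 95% interval of a gene's log2 difference had a median half-width of 0.24, equal to 1.18-fold, and 95% of genes had a half-width under 0.52. For 13975 genes (98.3%) the whole interval lay within 2-fold in both directions, and for 12027 (84.6%) within 1.41-fold. The interval reached past 2-fold for 242 genes. These intervals bound measured intensity, so at dim genes they need not limit a change in RNA. The share within 2-fold was 97.8% among genes above the 25th percentile of level and 97.7% among those above the median level. Being called was harder: a gene changing on its own would have needed a log2 difference of 0.73 at the median gene (1.65-fold) and 1.60 at the gene 95% of the way up the order of spread. Had 1% of genes passed together, the median gene would have needed 0.47 (1.39-fold). Observed differences exceeded 0.5 in 121 genes and 1 in 2 genes.

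**Figure D1:**
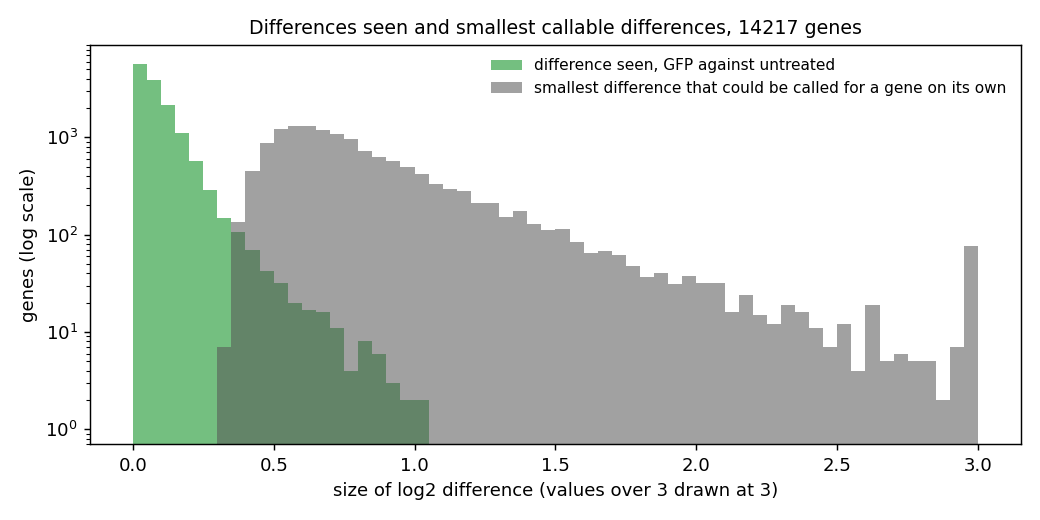
Histogram of the size of the log2 difference between GFP and untreated arrays for 14217 genes (green), and of the smallest log2 difference each gene would have needed to be called on its own (grey), with genes counted on a log scale and values above 3 drawn at 3. The median gene would have needed 0.73, and only 2 genes differed by more than 1.

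The same fit called many genes for the other viruses. Against the untreated arrays, 1129 genes (7.94%) were called in the arrays titled Nr4a1, 760 higher and 369 lower, and 213 (1.5%) in those titled Nr4a3, 175 higher and 38 lower. The mean of the acinar cell genes was 10.12 with Nr4a1 and 8.74 with Nr4a3, against 8.32 in untreated and 7.98 in GFP arrays. Of 28 measured acinar genes 15 were called with Nr4a1 and 0 with Nr4a3. How far acinar RNA enters the counts was not tested. Nr4a3 replicate 2 stood apart: its 3' minus 5' differences, which rise with poor RNA or labelling, were 4.62 for beta-actin and 2.06 for GAPDH, against at most 2.21 and 0.74 in the other 19 arrays, and its mean correlation with the others was 0.941. Without this array, which also enters the pooled spread, 2710 genes were called with Nr4a1, 538 with Nr4a3 and 0 with GFP. All 3 comparisons share the untreated arrays, so their values are given side by side and not as independent results. The heat shock chaperone gene Hsph1 averaged 9.71 ± 0.09 (SD, log2, n = 5) in untreated and 9.87 ± 0.20 in GFP arrays, a difference of 0.17 ± 0.10 (SE), whereas it rose by 0.95 with Nr4a1 (limma adjusted p = 3.31e-06) and by 0.45 with Nr4a3 (0.0206). The beta cell transcription factor gene Pdx1 differed by 0.10 ± 0.13 with GFP and fell by 0.60 with Nr4a1 (limma adjusted p = 0.00499). The heme oxygenase gene Hmox1, which responds to oxidative stress, differed by 0.04 ± 0.15 with GFP and fell by 0.62 with Nr4a1 (limma adjusted p = 0.0134) and by 0.62 with Nr4a3 (0.0433).

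Interferon response genes came first among the groups examined because they are the classical readout of virus sensing. Of 54 listed genes 44 were measured, and 0 were called. The median log2 difference was -0.02, the same as over all genes, with 21 members above 0 and 23 below, and the interval lay within 2-fold for 42 of 44. At an unadjusted p under 0.05 there were 3 of 44, 2 higher and 1 lower, against 2.9% of all genes. The members whose intervals reached further were the chemokine genes Cxcl10 (log2 difference 0.30, 95% interval -0.47 to 1.06) and Cxcl11 (0.37, -0.42 to 1.16), the latter named after its values were seen.

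The promoters of a pair of these genes show the element that interferon signalling is known to act through. The 110 bases before the annotated start are given for Oas1a, which encodes an enzyme that makes the activator of an antiviral nuclease, and for Ifit3, which encodes an antiviral RNA-binding family protein, from RefSeq on GRCr8, Oas1a at chr12:41330356-41330465 and Ifit3 at chr1:241527216-241527325, both on the plus strand. Capitals mark a core of the interferon-stimulated response element, GAAA, any 2 bases and GAAA again, on either strand (TTTC, 2 bases and TTTC when read on the other one), and the 2 matches in Oas1a overlap.
Oas1a: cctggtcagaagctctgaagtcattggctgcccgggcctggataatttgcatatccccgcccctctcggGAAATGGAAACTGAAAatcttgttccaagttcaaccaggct
Ifit3: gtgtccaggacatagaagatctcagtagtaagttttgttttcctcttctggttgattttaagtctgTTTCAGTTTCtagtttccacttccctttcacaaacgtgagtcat

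Of the 44 measured interferon response genes 36 had a promoter in the RefSeq table, and 22 of these (61.1%) held the element in the 250 bases before the start, against 1140 of all 33469 promoters (3.41%). A match describes the letters and was not tested as a site.

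Both of these genes were dim in every sample. Oas1a measured 4.68, 5.04, 4.57, 4.95 and 4.71 (log2 intensity) in the untreated arrays and 4.62, 4.62, 4.70, 5.03 and 4.78 in the GFP arrays. Its groups overlapped throughout, and the difference was -0.04 ± 0.13 (SE), with a 95% interval of 0.804- to 1.18-fold. Ifit3 measured 4.17, 3.87, 3.83, 3.88 and 4.22 without virus and 3.94, 3.80, 3.73, 3.80 and 3.85 with GFP, a difference of -0.17 ± 0.15. The 3 highest values of Ifit3 included 2 untreated arrays and 1 GFP array, and the groups overlapped.

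The other classical members likewise gave no higher level with virus. Isg15, a ubiquitin-like protein gene, measured 7.85, 8.05, 7.11, 8.01 and 7.81 in untreated and 7.81, 7.42, 7.51, 7.38 and 7.15 in GFP arrays. Untreated replicate 3 was the lowest of the 10, the other 4 untreated arrays were at or above the highest GFP array, and the difference of -0.31 ± 0.21 did not pass. Ifit1, which encodes a protein that binds foreign RNA ends, measured 5.76, 5.90, 6.19, 6.10 and 6.19 against 5.74, 5.66, 5.75, 6.06 and 6.02 with GFP, and differed by -0.18 ± 0.12. Irf7, the transcription factor gene that amplifies interferon production, measured 7.85, 7.59, 7.27, 7.59 and 7.53 against 7.70, 7.28, 7.46, 7.41 and 7.30, and differed by -0.13 ± 0.14. In both genes the groups overlapped.

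The dynamin-like antiviral genes Mx1 and Mx2 differed by -0.21 ± 0.26 and -0.33 ± 0.24. Mx2 measured 6.35, 5.87, 5.39, 6.28 and 5.84 in untreated and 5.93, 5.63, 5.81, 5.22 and 5.46 in GFP arrays, so the highest 2 values came from untreated islets and the lowest from a GFP array. The smallest p of the list belonged to Ifit2, a relative of Ifit1, at 7.20, 6.72, 6.32, 6.42 and 6.96 without virus and 6.48, 6.07, 6.51, 6.52 and 5.84 with it. Its difference was -0.44 ± 0.18 (limma unadjusted p = 0.024, n = 5 per group), which did not pass the adjustment, and the groups overlapped. Dimmer probe sets of Ifit2 and Mx2 gave smaller differences, -0.13 ± 0.37 and -0.07 ± 0.11. The 2 members with an unadjusted p under 0.05 and GFP higher were Trim25, a ligase gene of RNA sensing (0.21 ± 0.10, but 0.03 without untreated replicates 4 and 5, which both measured 10.06), and Igtp, an interferon-induced GTPase gene (0.25 ± 0.12). For 7 panel members, Ifit1, Ifit3, Isg15, Mx1, Mx2, Oas1a and Irf7, the largest upper bound was that of Mx1, 1.26-fold. Cxcl10, also on the panel, is not among these 7, and its upper bound, given above, was higher. The bounds describe measured intensity and need not limit a change in RNA at dim genes. Oas1a, Ifit3, Mx1, Ifit1 and Mx2 all lay below the 25th percentile of level, with Mx1 at 16.6. Isg15 and Irf7, at level percentiles of 49.6 and 48.0, had upper bounds of 1.10- and 1.12-fold.

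**Figure D2:**
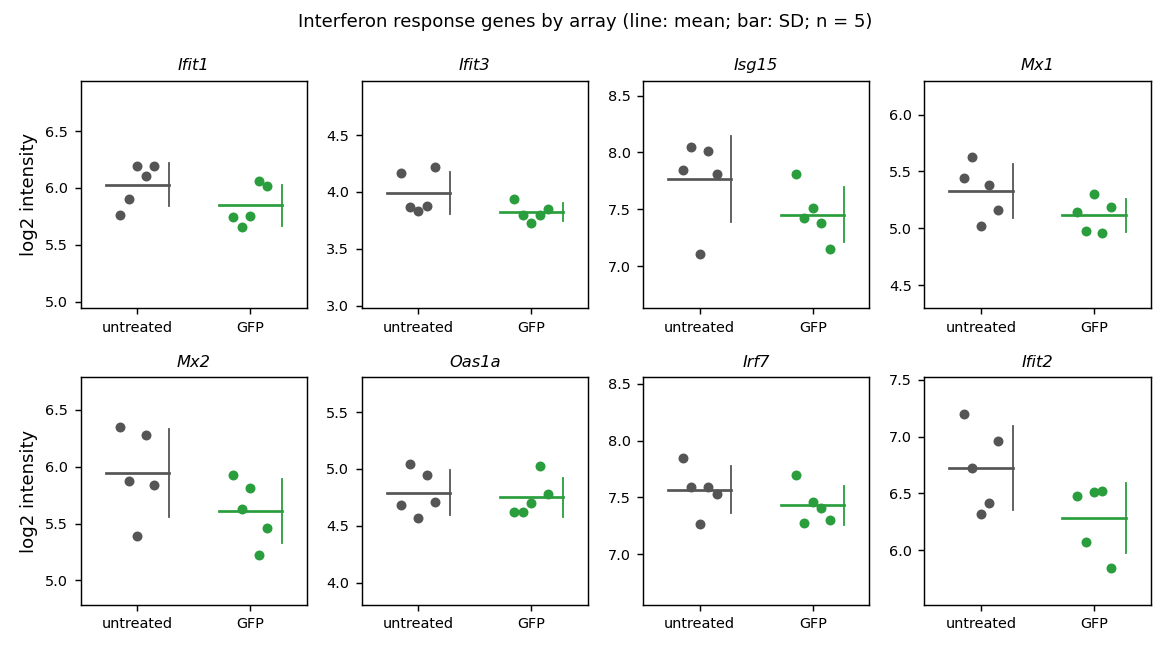
Log2 intensity of 8 interferon response genes in each of 5 untreated (grey) and 5 GFP (green) arrays, with the group mean as a horizontal line and the SD as a vertical bar, each panel on its own axis spanning at least 2 log2 units. The points of the groups overlap in every panel; Ifit2 shows the largest difference of means, -0.44, and Oas1a the smallest, -0.04.

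Upstream of interferon, the sensing and entry genes showed no call either. Of 19 measured sensors and signalling genes 0 were called, the median was -0.06, and 18 intervals lay within 2-fold. The receptor gene Cxadr measured 6.51, 6.01, 5.88, 5.96 and 5.77 in untreated and 5.95, 6.31, 6.39, 6.11 and 6.21 in GFP arrays, a difference of 0.17 ± 0.16 with overlapping groups. The integrin gene Itgav, whose protein takes part in entry, differed by 0.04 ± 0.16, and all 15 entry and attachment genes had intervals within 2-fold with a median of -0.04. In the lipopolysaccharide receptor gene Tlr4 the groups did not overlap, at 5.51, 5.48, 5.39, 5.38 and 5.43 against 5.07, 5.34, 5.37, 5.37 and 5.16. The difference was -0.18 ± 0.13 (limma unadjusted p = 0.176, n = 5 per group). Its SE also holds the spread of the other viruses' arrays, 5.16 to 5.59 with Nr4a1 and 5.08 to 5.91 with Nr4a3.

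Antigen presentation, the route by which infected cells show viral peptides, gave 0 calls among 26 measured genes. The median was 0.07, with 20 members above 0 and 6 below. The light chain gene of MHC class I, B2m, measured 13.77, 13.91, 13.67, 13.81 and 13.68 without virus and 14.02, 13.91, 13.90, 13.57 and 13.84 with GFP, a difference of 0.08 ± 0.08. The peptide transporter genes Tap1 and Tap2 each differed by 0.27 (SE 0.16 and 0.14), and the class II gene RT1-Ba by -0.25 ± 0.10 (limma unadjusted p = 0.0236, n = 5 per group).

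NF-kB and inflammatory genes differed most in the positive direction among the 27 lists, with wide intervals. Of 41 listed genes 40 were measured and 0 were called. The median difference was 0.20, with 29 members above 0 and 11 below, but only 23 intervals lay within 2-fold, and 1 member had an unadjusted p under 0.05. That member was Ripk2, the kinase gene downstream of bacterial sensors, at 6.97, 7.38, 7.17, 6.95 and 6.53 in untreated and 7.50, 7.79, 7.37, 7.02 and 7.51 in GFP arrays (difference 0.44 ± 0.18, limma unadjusted p = 0.0271). The list median ran from 0.08 (without GFP replicate 2) to 0.41 (without GFP replicate 4) as single arrays were left out.

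The promoters of Cxcl1, which encodes a chemokine that draws neutrophils, and Nfkbia, which encodes the inhibitor that NF-kB induces against itself, are shown as the NF-kB counterpart. The 110 bases before each start are from RefSeq on GRCr8, both on the minus strand, Cxcl1 at chr14:17479322-17479431 and Nfkbia at chr6:78597073-78597182. Capitals mark an NF-kB element, GGG, any 2 bases and TTTCC, on either strand (GGAAA, 2 bases and CCC when read on the other one).
Cxcl1: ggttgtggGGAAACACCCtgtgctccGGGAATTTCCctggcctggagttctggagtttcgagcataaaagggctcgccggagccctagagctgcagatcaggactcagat
Nfkbia: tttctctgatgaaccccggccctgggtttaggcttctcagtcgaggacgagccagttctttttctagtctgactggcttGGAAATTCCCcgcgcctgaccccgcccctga

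This element lay in the 250 bases before the start in 10 of 30 measured list genes with a promoter in the table (33.3%), against 435 of all 33469 promoters (1.3%).

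Cxcl1 had the widest interval of all genes. It measured 6.97, 10.97, 9.45, 10.31 and 8.69 in untreated and 10.00, 11.86, 11.14, 5.78 and 11.02 in GFP arrays. The lowest array of each group was far below the others, untreated replicate 1 and GFP replicate 4, and the GFP arrays spanned 67.8-fold. The difference of 0.68 ± 1.10 had a 95% interval of 0.325- to 7.89-fold, so a change of several-fold in either direction was not detectable.

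Other inflammatory genes followed the same arrays. Nfkbia measured 9.48, 11.00, 10.33, 10.69 and 10.13 without virus and 10.59, 11.34, 11.20, 9.43 and 10.89 with GFP. The adhesion molecule gene Icam1 measured 8.29, 9.64, 8.52, 9.37 and 9.05 against 8.93, 10.19, 9.44, 7.72 and 9.72. The complement gene C3 measured 8.80, 12.62, 10.77, 11.40 and 10.58 against 11.47, 12.52, 12.82, 8.83 and 11.61. In all 3 the lowest untreated array was replicate 1 and the lowest GFP array replicate 4, and the groups overlapped. The acute phase genes Saa3 and Orm1, the protease inhibitor gene Slpi and the complement regulator gene C4bpa, which with Cxcl1 and C3 had the 6 widest intervals, were also lowest in these arrays. Their differences were 0.83, 0.85, 0.71 and 0.71, with half-widths of 1.78 to 1.98 on the log2 scale. The mean of the NF-kB list was 7.27 in untreated replicate 1 and 7.11 in GFP replicate 4, against 7.70 to 8.56 in the other 8 arrays.

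Cytokine genes did not share one direction in their brightest probe sets. The chemokine gene Ccl2, which draws monocytes, differed by 0.14 ± 0.41, and Il6 by 0.03 ± 0.44. Tnf measured 6.66, 6.72, 6.56, 6.90 and 6.94 in untreated and 6.47, 6.48, 6.53, 6.72 and 6.79 in GFP arrays, a difference of -0.16 ± 0.09. Its other, dimmer probe set went the opposite way, by 0.49 ± 0.26, so the direction of Tnf depended on the probe set. The inducible nitric oxide synthase gene Nos2, through which cytokines harm beta cells, measured 8.31, 8.35, 8.22, 8.42 and 8.52 against 8.17, 8.15, 8.21, 8.32 and 8.37. Its difference of -0.12 did not pass either.

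**Figure D3:**
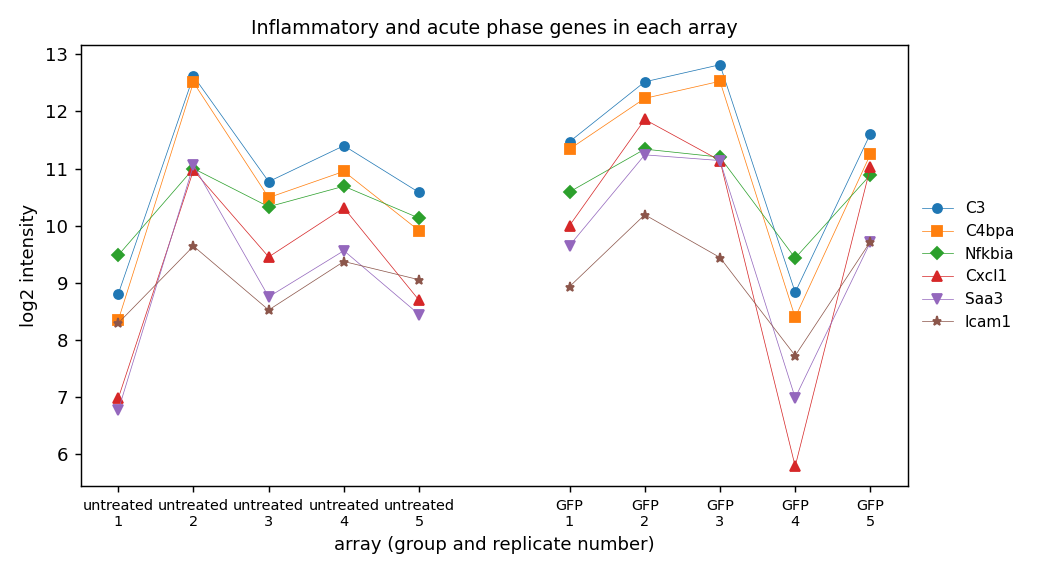
Log2 intensity of C3, C4bpa, Nfkbia, Cxcl1, Saa3 and Icam1 in each untreated (left) and GFP (right) array, with thin lines joining the values of 1 gene and implying no order of the replicates. All 6 genes are lowest in untreated replicate 1 within the untreated arrays and in GFP replicate 4 within the GFP arrays, with Cxcl1 at 6.97 and 5.78.

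The stress and damage lists held no call. Of 24 measured p53 target genes 0 were called and all 24 intervals lay within 2-fold (median 0.03). Cdkn1a, the cell cycle inhibitor gene that p53 induces, measured 9.04, 9.39, 9.26, 9.25 and 9.46 in untreated and 9.42, 9.66, 9.23, 9.17 and 9.57 in GFP arrays (difference 0.13 ± 0.14), and Mdm2, the ligase gene that restrains p53, differed by 0.04 ± 0.12. Dimmer probe sets of both genes gave larger differences, none of which passed. They were 0.42 ± 0.21 for Cdkn1a, and 0.22 ± 0.12 and 0.13 ± 0.12 for Mdm2. All 26 DNA damage genes had intervals within 1.41-fold (median 0.02). All 32 unfolded protein response genes had intervals within 2-fold (median 0.04). Hspa5, the main chaperone gene of the endoplasmic reticulum, differed by 0.05 ± 0.09 and Ddit3, a gene of prolonged stress, by -0.08 ± 0.25.

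The remaining lists of general cell function also held 0 calls. In heat shock genes the median of 21 measured members was 0.02, and Hsp90ab1, a cytosolic chaperone gene, was the 1 with an unadjusted p under 0.05, at 0.37 ± 0.17, with its lowest values in untreated replicates 4 and 5. Medians were 0.02 for 33 oxidative stress and NRF2 target genes, -0.01 for 30 apoptosis genes and 0.02 for 37 hypoxia and glycolysis genes. They were 0.08 for 21 cholesterol synthesis genes, 0.02 for 24 translation and ribosomal protein genes and -0.01 for 34 oxidative phosphorylation genes. All intervals lay within 2-fold in the heat shock, cholesterol, ribosomal and oxidative phosphorylation lists, and in 29 of 33, 29 of 30 and 35 of 37 members of the others.

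Among 31 measured immediate early genes the median was 0.02, and the 1 with an unadjusted p under 0.05 was Zfp36, whose protein destabilizes cytokine mRNA. It measured 8.75, 9.05, 8.66, 8.76 and 8.81 without virus and 9.11, 9.31, 9.28, 8.68 and 9.42 with GFP, a difference of 0.35 ± 0.16 in which 4 of 5 GFP arrays lay above every untreated array and GFP replicate 4 below most of them. Of the receptor genes delivered by the other viruses, Nr4a1 averaged 6.05 ± 0.16 (SD) in untreated and 6.07 ± 0.09 in GFP arrays. Nr4a3 averaged 5.83 ± 0.07 and 5.63 ± 0.17, a difference of -0.20 ± 0.10 (SE, limma unadjusted p = 0.052). Dimmer probe sets of Nr4a3 differed by 0.12 ± 0.23 and -0.03 ± 0.16, so the sign was not shared. In the arrays titled Nr4a1, the Nr4a1 probe set also differed from untreated by only -0.06 (limma adjusted p = 0.784). The brightest Nr4a3 probe set measured 5.64 to 6.10 in the arrays titled Nr4a3, against 5.74 to 5.93 in untreated arrays. Neither of these probe sets therefore checks the titles, and the dimmer ones of Nr4a3 were not compared there.

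Beta cell genes lay close together between the groups. Of 28 listed 19 were measured, 0 were called, 18 intervals lay within 2-fold and the median was 0.05. The glucose transporter gene Slc2a2 measured 13.74, 13.19, 13.19, 13.30 and 13.20 in untreated and 13.38, 13.09, 13.31, 13.49 and 13.30 in GFP arrays, a difference of -0.01 ± 0.17. Mafa, the transcription factor gene of mature beta cells, measured 12.56, 11.56, 11.86, 12.13 and 11.89 against 11.99, 11.61, 11.68, 12.30 and 11.88, and differed by -0.11 ± 0.26. Nkx6-1 measured 10.74, 10.53, 10.65, 10.63 and 10.22 against 10.75, 10.43, 10.68, 10.54 and 10.60, and differed by 0.04 ± 0.12. The groups overlapped in each of these genes. The 1 member with an interval past 2-fold was Sytl4, which encodes a granule docking protein, at 8.51, 8.30, 8.12, 7.40 and 6.65 against 8.11, 8.18, 8.52, 8.58 and 8.79. Its low values were those of untreated replicates 4 and 5.

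Other hormone genes gave the same picture. The pancreatic polypeptide gene Ppy measured 14.28, 14.05, 14.52, 14.55 and 14.46 without virus and 14.29, 14.20, 14.02, 14.11 and 13.82 with GFP, a difference of -0.28 ± 0.15 (limma unadjusted p = 0.0755, n = 5 per group). The somatostatin gene Sst measured 12.95, 12.16, 13.00, 13.00 and 12.91 against 12.92, 12.32, 12.50, 13.03 and 12.55, with replicate 2 the lowest of both groups. All 16 measured genes of non-beta hormone cells had intervals within 2-fold. Of 38 measured exocytosis and calcium channel genes 36 did, with a median of 0.03.

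Genes of other cell types leaned lower with GFP, without any call. The direction held for 26 of 30 macrophage and leukocyte genes (median -0.16), 26 of 28 fibroblast and stellate cell genes (-0.18), 18 of 20 endothelial genes (-0.12) and 26 of 28 acinar genes (-0.37), while 8187 of all 14217 genes lay below 0. In bulk islets, fewer cells of a type and less RNA per cell cannot be told apart. Members of such a list come from the same few cells of each array and are not independent. With single arrays left out, the median ran from -0.26 (without GFP replicate 1) to -0.08 (without GFP replicate 3) for macrophage genes and from -0.29 (without untreated replicate 4) to -0.08 (without untreated replicate 5) for fibroblast genes. It ran from -0.21 (without GFP replicate 4) to -0.06 (without GFP replicate 5) for endothelial genes. The acinar median ran from -0.79 (without untreated replicate 4) to 0.04 (without untreated replicate 5). Duct and nerve cell lists had medians of -0.07 and -0.08.

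The largest differences downward were those of complement C1q, which resident macrophages make. C1qb measured 8.40, 6.49, 7.27, 7.32 and 8.39 in untreated and 7.42, 5.81, 6.39, 7.85 and 5.98 in GFP arrays. Untreated replicates 1 and 5 and GFP replicate 4 were highest, the groups overlapped, and the difference of -0.89 ± 0.55 had an interval of 0.245- to 1.2-fold. C1qc and C1qa, the other chains, differed by -0.81 ± 0.53 and -0.80 ± 0.58 and were highest in the same 3 arrays. The macrophage lysosomal gene Cd68 measured 7.55, 6.71, 7.03, 7.16 and 8.15 against 7.04, 6.72, 6.69, 7.26 and 6.40 (difference -0.49 ± 0.24). The mean of the macrophage list was 6.16 to 6.99 in untreated and 5.99 to 6.62 in GFP arrays.

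Endothelial genes gave 3 of 20 with an unadjusted p under 0.05, all lower with GFP, against 2.9% of all genes. The angiopoietin receptor gene Tek measured 6.59, 5.91, 6.21, 6.50 and 6.75 in untreated and 6.25, 5.89, 5.83, 6.25 and 5.77 in GFP arrays, a difference of -0.39 ± 0.17. The clotting factor carrier gene Vwf and the surface glycoprotein gene Clec14a differed by -0.25 and -0.26. None passed for GFP, while against the same untreated arrays Tek fell by 0.82 with Nr4a1 (limma adjusted p = 0.00376) and by 0.72 with Nr4a3 (0.0322). The endothelial sialomucin gene Emcn differed by -0.32 ± 0.18 with GFP and fell by 1.14 with Nr4a1 (limma adjusted p = 0.00046) and by 0.96 with Nr4a3 (0.00838).

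Acinar genes varied most between arrays of the same group. Their mean was 8.49, 7.58, 8.49, 6.98 and 10.05 in untreated and 7.56, 8.89, 6.97, 9.06 and 7.41 in GFP arrays, and only 6 of 28 intervals lay within 2-fold. The trypsin inhibitor gene Spink1 ranged over 27.7-fold among untreated and 6.99-fold among GFP arrays, and differed by -0.70 ± 0.69. Adding the acinar mean to the model left 0 genes called and 340 at an unadjusted p under 0.05.

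**Figure D4:**
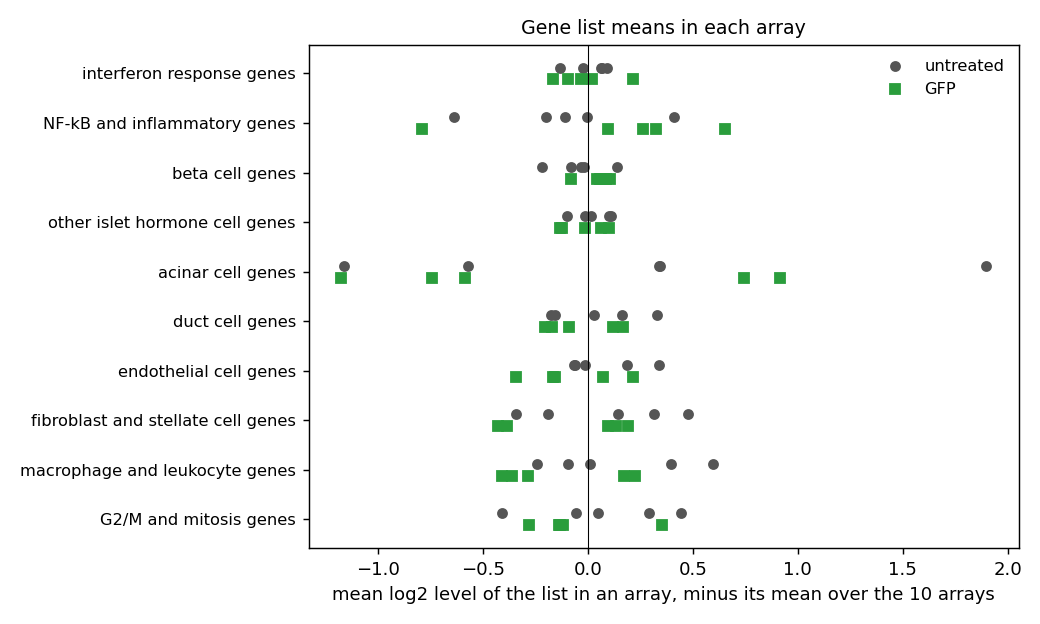
Mean log2 level of 10 gene lists in each untreated (grey circles) and GFP (green squares) array, as the difference from the list's own mean over the 10 arrays. The groups overlap in every list; acinar genes spread widest, with untreated replicate 5 at a mean level of 10.05, and genes of the non-beta islet hormone cells least of the 10 lists.

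Cell cycle genes gave 0 calls with GFP. Against the same untreated arrays, 29 of 48 G2/M and 15 of 45 G1/S genes were called with Nr4a1 (7.94% of all genes), and 14 of 48 and 8 of 45 with Nr4a3 (1.5%). Of 45 measured G1/S genes 12 lay above 0 and 33 below (median -0.06). Of 48 measured G2/M and mitosis genes 6 lay above 0 and 42 below, with a median of -0.14 and all intervals within 2-fold. This median ran from -0.25 (without GFP replicate 4) to -0.03 (without untreated replicate 5), and was -0.05 without untreated replicates 4 and 5. Their mean was 6.98, 6.73, 6.28, 6.63 and 7.13 in untreated and 6.57, 6.55, 6.55, 7.04 and 6.41 in GFP arrays, highest in untreated replicates 5 and 1 and in GFP replicate 4, which were also the 3 arrays highest in C1q. The proliferation marker gene Mki67 measured 7.05, 6.30, 6.01, 6.26 and 7.13 against 6.68, 6.27, 6.41, 7.04 and 5.66. It differed by -0.14 ± 0.26 with GFP and rose by 0.97 with Nr4a1 (limma adjusted p = 0.0255). The topoisomerase gene Top2a differed by 0.02 ± 0.16 with GFP and rose by 0.65 with Nr4a1 (limma adjusted p = 0.016).

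The smallest p-values, none of which passed, belonged mostly to genes below the median level on the lower side. Cckbr, the gastrin receptor gene, measured 6.31, 6.32, 5.96, 6.28 and 5.98 in untreated and 5.82, 5.80, 5.93, 5.70 and 5.82 in GFP arrays. The groups did not overlap, by a margin of a few hundredths, and the difference was -0.36 ± 0.09 (limma unadjusted p = 0.000878, adjusted p = 0.99975). Its other probe set differed by 0.03. Sh3tc2, a gene of myelinating cells, measured 5.66, 5.57, 5.73, 5.68 and 5.72 against 5.55, 5.32, 5.24, 5.46 and 5.48, and the kinase gene Hunk 6.49, 6.53, 6.45, 6.46 and 6.49 against 6.17, 6.13, 6.27, 6.34 and 6.29. In neither gene did the groups overlap, and they differed by -0.27 ± 0.07 and -0.25 ± 0.07. The other 9 of the 12 smallest p-values on this side differed by -0.23 (the growth factor gene Vegfd) to -0.47 (the synuclein gene Sncg).

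On the higher side the smallest p-values lay mostly at genes above the median level. Mdm4, which encodes a partner of Mdm2 in holding back p53, measured 8.09, 8.10, 8.52, 7.86 and 7.86 in untreated and 8.58, 8.40, 8.37, 8.34 and 8.59 in GFP arrays (difference 0.37 ± 0.11). The collagen gene Col27a1 measured 9.28, 8.99, 9.36, 9.23 and 9.02 against 9.68, 9.64, 9.43, 9.47 and 9.61, and its groups did not overlap (0.39 ± 0.12). Jak2, the kinase gene that relays cytokine signals, measured 8.09, 8.79, 8.42, 7.76 and 7.45 against 8.70, 9.13, 8.96, 8.06 and 8.75 (0.62 ± 0.22), and Foxo1, the transcription factor gene restrained by insulin signalling, 9.06, 8.85, 8.96, 8.38 and 8.46 against 9.08, 9.11, 9.11, 9.01 and 9.14 (0.35 ± 0.12). In Mdm4, Jak2 and Foxo1 the lowest arrays of all were untreated replicates 4 and 5.

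The largest differences upward rested on those 2 untreated arrays. Chd4, the remodelling ATPase gene of the NuRD complex, measured 10.61, 10.46, 10.71, 8.46 and 8.32 in untreated and 10.68, 10.58, 10.76, 10.65 and 10.65 in GFP arrays. Untreated replicates 1 to 3 overlapped the GFP arrays, and the mean of these 3 was 4.61-fold that of replicates 4 and 5. Med13, which encodes a subunit of the Mediator kinase module, measured 8.53, 8.65, 8.57, 6.53 and 6.73 against 8.68, 8.72, 8.68, 8.74 and 8.77, and here replicates 1 to 3 lay just below the GFP arrays, so the groups did not overlap. The ArfGAP gene Asap1 measured 8.77, 8.64, 8.72, 6.79 and 6.42 against 8.81, 8.75, 8.95, 8.66 and 8.88. Pdxdc1 and Zbtb41 had the same pattern, and the differences of these 5 genes began at 0.92. Against untreated replicates 1 to 3 alone they were 0.01 to 0.13. The cadherin gene Cdh22, with the largest difference of all (1.04 ± 0.34), was also lowest in replicates 5 and 4, but replicates 1 and 2 lay below all GFP arrays too, at 9.82 and 8.90. The other, dimmer probe set of Cdh22 differed by -0.14 ± 0.20, and untreated replicates 4 and 5 were not low in it, at 8.24 and 8.35.

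Across all genes, 41 had both untreated replicates 4 and 5 at least 1 log2 unit below each of the other 8 arrays, and 0 had them as far above. These 41 include 40 of the 100 largest differences upward. Of 34 with several probe sets, 29 had another probe set in which the 2 arrays overlapped the other 8. The second probe set of Chd4 measured 10.03, 10.00, 10.07, 10.05 and 10.06 without virus and 10.20, 10.14, 10.22, 10.07 and 10.08 with GFP, while the third was again low in replicates 4 and 5, at 6.77 and 7.45. The second probe set of Med13 measured 7.50, 7.28, 7.45, 7.46 and 7.31 against 7.54, 7.69, 7.49, 7.40 and 7.55. The low values were not confined to untreated islets: Chd4 reached down to 8.66 and Zbtb41 to 5.91 in the arrays titled Nr4a1. The cause of these low values was not tested.

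**Figure D5:**
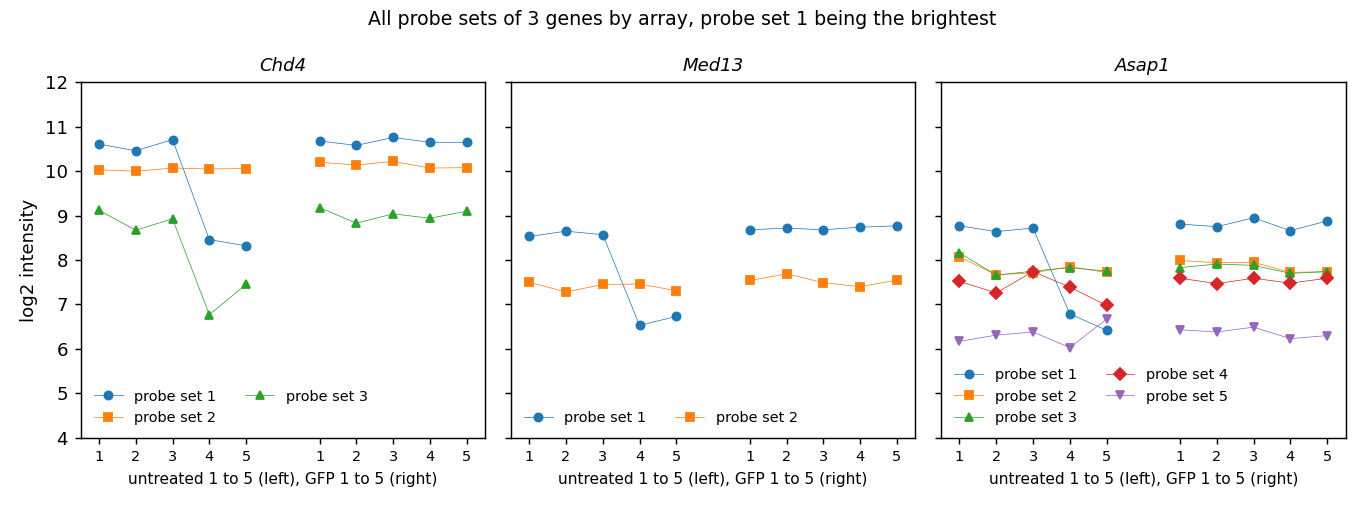
Log2 intensity of every probe set of Chd4, Med13 and Asap1 in the 5 untreated (left in each panel) and 5 GFP (right) arrays, with thin lines that join the values of 1 probe set and imply no order. The brightest probe set of each gene (blue) falls away in untreated replicates 4 and 5, as does the third of Chd4, while the second of each gene stays level.

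At the other end, some genes were measured very closely. The narrowest intervals were those of the lipid kinase gene Pi4kb, the translocon gene Sec61b, Fbxl12, the Rab regulator gene Gdi2, the mTORC1 activator gene Rheb and the deacetylase gene Sirt7, with half-widths from 0.11. Sec61b measured 12.93, 12.91, 12.90, 12.98 and 12.87 in untreated and 12.90, 12.92, 12.88, 12.88 and 12.86 in GFP arrays, and Rheb 12.54, 12.62, 12.58, 12.67 and 12.62 against 12.58, 12.59, 12.58, 12.57 and 12.57. Differences of these 6 genes ran from -0.06 to 0.02.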

How the data were processed

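The authors deposited linear intensity values per probe set. Per the submitters' processing notes they came from RMA (robust multi-array average), with a version number not given in the sources used here; log2 was taken and nothing rescaled. The 5 arrays per group limit the precision. Of 31099 probe sets, 9831 had no symbol in the array's annotation, 436 several and 20832 one; the brightest was kept for each of 14217 genes, and 4525 genes had several to choose from. Promoters came from the RefSeq table of GRCr8.

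Limma 3.58.1 in R 4.3.3 fitted 1 mean per group to all 20 arrays, with moderated two-sided tests on 16 residual and 3.64 prior degrees of freedom, Benjamini-Hochberg adjustment over all genes and calls at an adjusted p under 0.05. The scripts were tested on simulated data. For array measures, group labels were permuted exactly over the 10 arrays.

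Named genes were the 12 smallest p-values and the 6 largest differences each way, up to 4 genes of smallest p per list, the 6 widest and 6 narrowest intervals, and a panel of 36, of which 35 were measured; unnamed loci and olfactory, vomeronasal and taste receptors were left out of the ranked choices. The comparison, the 27 lists and the panel were chosen with earlier results of these data known. Cxcl11 and the further probe sets were named after their values were seen. The alternatives were other sets of arrays in the fit, a replicate block, array weights, another variance model, normalizations, level filters, other uses of the probe sets, a pseudocount and an acinar covariate.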

Additional observations from a re-analysis of the deposited data

Results flagged for a closer look

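Among 418 groups of 5 values examined, those of the 182 genes that the naming rule gave and of the 27 list means, 17 held 1 array whose gap to its neighbour exceeded 0.71 of the group's range, Dixon's 95% limit for 5 values. Chance alone gives such a gap in about 1 group in 20. In untreated islets, the somatostatin gene Sst was low in replicate 2, at 12.16 against 12.91 for the next array, and the interferon-induced gene Isg15 was low in replicate 3, at 7.11 against 7.81. The phospholipase gene Pla2g10 was low in untreated replicate 2 (6.21, next 6.39) and the sensor adaptor gene Ticam1 in untreated replicate 1 (7.79, next 7.97). Values high in 1 untreated array were those of Slc2a2 in replicate 1 (13.74, next 13.30), the peptidase gene Dpp4 in replicate 1 (5.75, next 5.53) and the oxygen sensor gene Egln1 in replicate 2 (9.95, next 9.60). In untreated replicate 5 the lysosomal carboxypeptidase gene Prcp (8.46, next 8.16) and the leukocyte integrin gene Itgb2 (8.07, next 7.39) were high.

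With GFP, Zbtb41 was low in replicate 1 (8.35, next 8.71), and in replicate 2 the kinase gene Cdk6 was low (3.91, next 4.19) and the chaperone gene Hsph1 high (10.22, next 9.83). GFP replicate 4 was low in Mdm2 (9.50, next 9.83), Tap2 (8.24, next 8.69), the stress sensor gene Atf6 (11.42, next 11.82) and the disulfide isomerase gene Pdia3 (13.33, next 13.52). The mean of the G2/M and mitosis genes was high in GFP replicate 4, at 7.04 against 6.57 for the next array, the same array in which the inflammatory genes were lowest.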

How the results depend on the processing

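No gene was called under any of the 26 alternatives, and the smallest limma adjusted p among them was 0.49974, without untreated replicate 3. The share of genes whose interval lay within 2-fold stayed between 97.5% and 98.9%. The median half-width, 0.24 as reported, ran from 0.17 with array weights to 0.28 without untreated replicates 4 and 5 together. The count at an unadjusted p under 0.05, 412 as reported, was 620 in a fit to only the 10 arrays, 855 without Nr4a3 replicate 2, 1174 with array weights, 1163 over all probe sets, and 256 and 127 among genes above the 25th percentile and the median of level, where 109 of the 127 were higher with GFP. It ran from 148 (without untreated replicate 5) to 726 (without untreated replicate 3) as single arrays were left out. The 86 genes whose groups did not overlap became 45 and 30 under the level filters, 202 over all probe sets, and 117 to 328 with single arrays left out, where smaller groups separate more readily. Leaving out untreated replicates 4 and 5 together, an alternative chosen after seeing the data, gave 76 genes at an unadjusted p under 0.05 and 227 that did not overlap. Leaving out Nr4a3 replicate 2, also added after seeing the data for the other viruses, moved their counts of called genes from 1129 to 2710 (Nr4a1) and from 213 to 538 (Nr4a3). Among genes above the median level the macrophage median was -0.57. Of 182 named genes 26 changed sign under at least 1 alternative, as did 17 of 27 list medians. The cause of these shifts was not tested.

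Whether samples of the same replicate number share an isolation is not given in the labels. The values showed no clear pairing by number, but 5 arrays per group that vary widely cannot exclude it. The deviations of untreated and GFP arrays of the same number correlated at 0.07, 0.40, -0.13, -0.26 and -0.23, and of the 5 untreated arrays none correlated best with the GFP array of its own number. With a replicate block, 0 genes were called, with 455 at an unadjusted p under 0.05 over all arrays and 718 over the 10 arrays alone.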
